A study of Mus musculus with 8 samples.

Results

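The Rab and Arl small GTPases are described here in mouse spinal cord, at the level of RNA. Members were the genes named Rab or Arl with a number in the deposited count table, with at least 10 expected counts in at least 4 libraries. Of 47643 gene rows 79 had such a name, and 72 passed the minimum: 55 Rab genes and 17 Arl genes. The 7 that did not pass were Arl13a, Arl14, Arl9, Rab17, Rab19, Rab25 and Rab44. Just outside the minimum, Rab44 reached 10 counts in 1 library, and just inside it Rab42 held 7 to 20 counts and passed in 6 libraries. All 72 members are annotated as protein coding, and all were tested in both fits described here.

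Spinal cord RNA from 8 C57BL/6 mice was sequenced, 1 library per mouse: 4 labelled homozygous and 4 labelled heterozygous for the deletion of Arf1. The labels give tamoxifen, injected at 100 mg/kg, as the trigger of the deletion, and mice of 2 to 10 months, with no age or sex for single animals. The heterozygous mice are thus no wild-type group, and the driver of the recombinase, which decides in which cells Arf1 is lost, is not named in the labels. The stated subject of the series is what Arf1 does in neurons. The comparison asks how transcripts of the other trafficking GTPases stood where Arf1 was to be deleted from both copies. Libraries held 26321522 to 37879426 expected counts in the homozygous group and 29857210 to 37803594 in the heterozygous group. Spinal cord patterning genes of the Hox clusters and the neuron markers were detected in every library, and skeletal muscle markers, which summed to 446 TPM in heterozygous replicate 1, lay between 9.56 and 56.4 TPM in the others.

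The library labelled homozygous replicate 1 went against its label. Its Arf1 level was 307 CPM (counts scaled to the library total), against 22.5, 22.8 and 39.9 CPM in homozygous replicates 2, 3 and 4 and 296 to 334 CPM in the heterozygous libraries. Results are therefore given over 7 libraries, without that library, and the main tests over all 8 as well. Homozygous replicate 3 had 2.44% ribosomal bases and 92.36% of reads mapped, against at most 0.34% and at least 98.33% in the other libraries. Homozygous replicate 4 had an RNA integrity number of 8, against 9 in every other library. Heterozygous replicate 4 had a median 5' to 3' coverage bias of 0.505, against 0.413 to 0.441 in the other libraries. Homozygous replicate 4 and heterozygous replicate 4 had 412 and 386 CPM of Xist, against at most 44.5 CPM in the other libraries.

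Rab and Arl proteins switch between a GTP-bound form on membranes and a GDP-bound form. Exchange factors load them with GTP, GTPase activating proteins turn them off, and effectors read the active form to tether, move or fuse vesicles. Each member marks certain membranes, from the endoplasmic reticulum and Golgi to endosomes, lysosomes, cilia and synaptic vesicles. The Arl proteins are close relatives of Arf1, which acts at the Golgi.

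The promoters of Rab24, Arl4a and Arl4d are shown because these members followed Rab26 in order of p-value over the 7 libraries. They run from 250 bases before to 50 after the annotated start, from RefSeq on GRCm38.p6, and capitals mark the motif matches. Rab24 lies on the minus strand at chr13:55321931-55322230, Arl4a on the minus strand at chr12:40037938-40038237 (the first of its listed starts) and Arl4d on the plus strand at chr11:101665291-101665590.
Rab24: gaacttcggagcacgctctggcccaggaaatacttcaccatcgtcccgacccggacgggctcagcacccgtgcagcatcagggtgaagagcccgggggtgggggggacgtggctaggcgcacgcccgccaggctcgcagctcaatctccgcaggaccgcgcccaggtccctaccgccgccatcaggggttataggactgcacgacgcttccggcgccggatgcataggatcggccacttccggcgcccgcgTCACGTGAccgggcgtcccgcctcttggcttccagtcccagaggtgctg
Arl4a: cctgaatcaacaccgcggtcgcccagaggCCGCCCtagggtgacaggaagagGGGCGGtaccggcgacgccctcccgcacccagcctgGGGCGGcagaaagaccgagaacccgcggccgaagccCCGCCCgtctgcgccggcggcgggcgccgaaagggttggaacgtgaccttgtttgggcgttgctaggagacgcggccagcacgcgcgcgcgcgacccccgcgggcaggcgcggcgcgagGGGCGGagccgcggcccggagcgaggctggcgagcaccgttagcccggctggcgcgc
Arl4d: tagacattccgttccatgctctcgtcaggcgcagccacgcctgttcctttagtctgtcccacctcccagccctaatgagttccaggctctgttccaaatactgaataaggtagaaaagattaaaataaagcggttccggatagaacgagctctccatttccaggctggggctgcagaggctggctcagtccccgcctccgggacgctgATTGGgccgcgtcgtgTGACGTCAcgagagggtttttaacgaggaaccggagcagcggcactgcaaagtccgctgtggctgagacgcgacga
Motifs were searched on both strands: TATAAA, TGACGTCA (the cAMP response element), TCACGTGA (an E-box form), GGGCGG (the GC box) and CCAAT. The Rab24 promoter held 1 TCACGTGA, at position 1 relative to its start, a motif added to the search after that sequence was read. Such a match stood in 1.01% of 27025 promoters and in 4 of the 60 members' promoters in the table. The Arl4a promoter, with 76.0% G and C, held 5 GC boxes. GC boxes stood in 35.9% of all promoters and in 47 of the 60. The Arl4d promoter held TGACGTCA at position -26, found in 1.88% of all promoters and in 3 of the 60, and a CCAAT, as ATTGG on the printed strand, at position -42, found in 37.9% of all promoters and in 31 of the 60. TATAAA, in 14.2% of all promoters and 5 of the 60, was in none of these 3. These are matches of letters and say nothing of binding.

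Levels were compared between members as TPM, a unit that takes account of transcript length. TPM are given here to rank the members. In this unit 30.2% of all genes had every value of homozygous replicates 2, 3 and 4 below every heterozygous value, and 1.68% the reverse. Rab3a, the main Rab of synaptic vesicles, was the highest member, at 638 ± 27.4 TPM in homozygous replicates 2, 3 and 4 and 686 ± 25.5 TPM in the heterozygous libraries (SD, n = 3 and 4). Its relatives lay far below it. Rab3c stood at 62.4 TPM in homozygous replicates 2, 3 and 4 and 87.9 TPM in the heterozygous libraries, Rab3b at 56.4 TPM (homozygous) and 58.9 TPM (heterozygous), and Rab3d at 4.67 TPM (homozygous) and 4.72 TPM (heterozygous).

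After Rab3a came 2 Golgi members, Rab6b, the form enriched in brain, and Rab6a. Rab6b averaged 292 TPM in homozygous replicates 2, 3 and 4 and 356 TPM in the heterozygous libraries, and Rab6a 279 TPM (homozygous) and 316 TPM (heterozygous). Rab7, which controls late endosomes and lysosomes, followed with 257 TPM (homozygous) and 303 TPM (heterozygous), and Rab2a, of traffic between the endoplasmic reticulum and Golgi, with 247 TPM (homozygous) and 266 TPM (heterozygous). Rab11b and Rab11a of recycling endosomes, Arl8a, which couples lysosomes to kinesin, Arl3, which releases lipidated proteins into cilia, and Arl1, which recruits golgins, completed the highest 10. The 5 highest members held 35.6% of the members' mean TPM and the 10 highest held 52.5%. Across all 72, 17 members averaged at least 100 TPM over the 8 libraries, 58 at least 10 TPM, and 3 under 1 TPM: Rab20, Arl11 and Rab38.

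**Figure D1:**
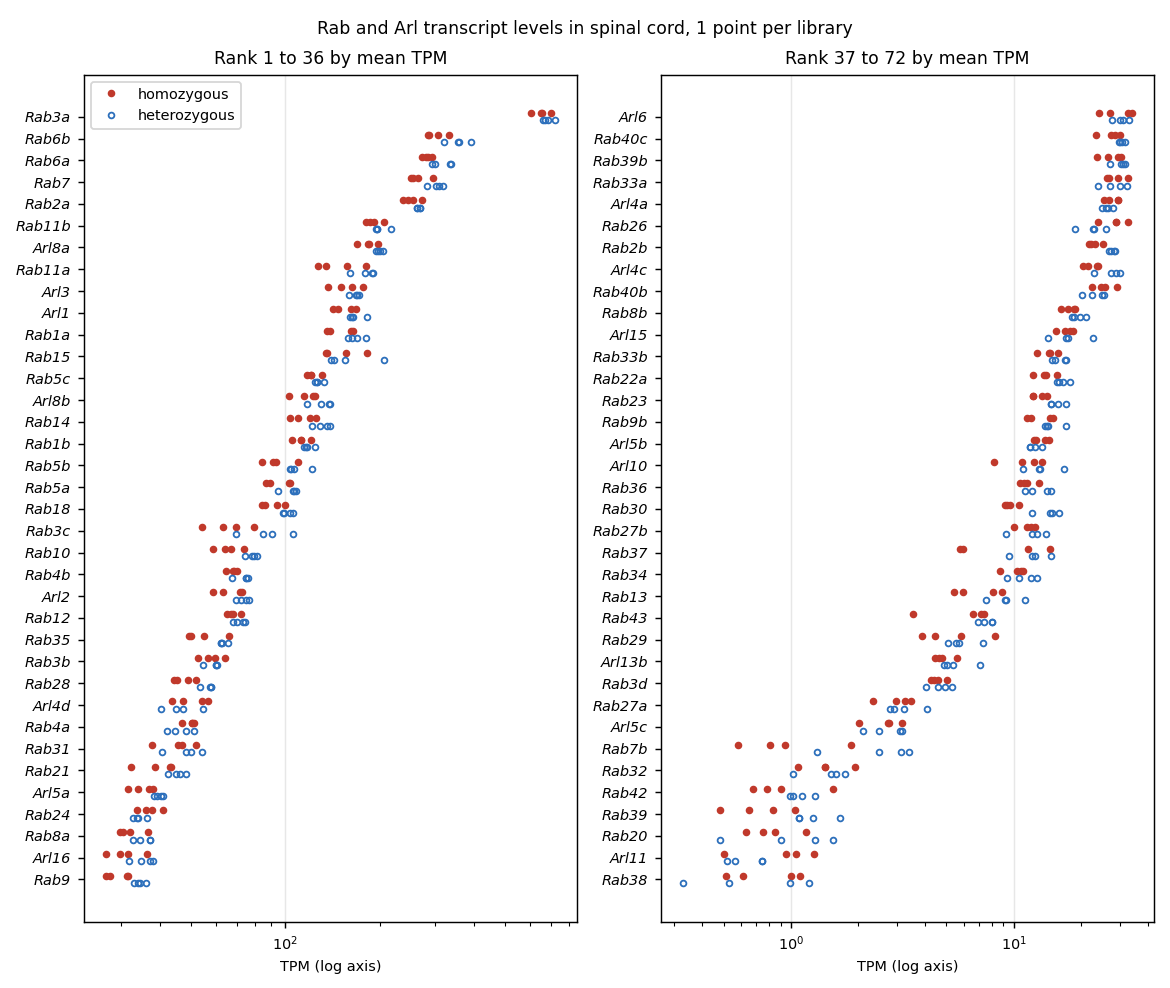
TPM of the 72 Rab and Arl genes on log axes, ranked by their mean over 8 libraries, with 1 point per library, homozygous in filled red and heterozygous in open blue. Rab3a stands apart at the top (606 to 722 TPM), and the lowest members lie near 1 TPM.

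By role, the 18 members of the endoplasmic reticulum and Golgi held 31.0% of the members' mean TPM, and the 8 of synaptic and secretory vesicles 16.7%. The 9 of recycling endosomes and the plasma membrane held 14.4%, the 9 of early endosomes 13.7%, and the 7 of late endosomes, lysosomes and autophagosomes 13.2%. The 7 of cilia and tubulin held 6.66%, the Arl4 group with other members 4.23%, and the 4 of phagosomes and lysosome-related organelles (Rab20, Rab29, Rab32 and Rab38) 0.173%. The median coefficient of variation of a member among the heterozygous libraries was 7.45%.

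Rab26 was the 1 member that passed the test between the genotypes over the 7 libraries, and it was higher in the homozygous libraries. Rab26 sits on synaptic and secretory vesicles and has been linked to their delivery to autophagosomes. It had 26.4, 25.2 and 23.4 CPM in homozygous replicates 2, 3 and 4, and 16.6, 19.8, 14.7 and 15.8 CPM in the heterozygous libraries. The groups did not overlap, and the library labelled homozygous replicate 1, with 19.0 CPM, lay within the heterozygous range. The mean was 24.99 ± 1.51 CPM in homozygous replicates 2, 3 and 4 and 16.7 ± 2.22 CPM in all heterozygous libraries (SD over 3 and 4 libraries), a log2 fold change of 0.58 (SE 0.11, edgeR quasi-likelihood test, adjusted p = 0.0405).

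Rab26 was 1 of 72 members past this test (1 higher, 0 lower), beside 1.22% of all 16560 genes tested. That share of all genes was 0.55% higher and 0.67% lower. Over all 8 libraries the log2 fold change of Rab26 was 0.49 (SE 0.12, edgeR adjusted p = 0.13). In that fit 0 of 72 members passed edgeR's test, beside 0.0% of 16511 genes. At an unadjusted p under 0.05 by edgeR were 12 of 72 members (9 higher and 3 lower). That share lay near the 16.8% of all genes (7.87% higher and 8.9% lower). DESeq2 called 3 of 72 members over the 8 libraries, all higher: Rab26, Rab24 and Rab4a. It called 1.57% of 16035 genes higher and 2.54% lower.

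The call of Rab26 over 7 libraries was lost with 1 library fewer in most cases. Its adjusted p by edgeR was 0.142 without homozygous replicate 2, 0.168 without homozygous replicate 3, 0.0514 without heterozygous replicate 1, 0.0724 without heterozygous replicate 3 and 0.0967 without heterozygous replicate 4, and 0.0741 with Xist as a covariate. The fold change kept its direction in all 14 alternatives over the 7 libraries, with log2 values of 0.40 to 0.67. The call held in 8 of the 14, among them limma on log2(TPM + 1) (adjusted p = 0.0418). In the libraries with high Xist, Rab26 had 23.4 CPM in homozygous replicate 4 and 15.8 CPM in heterozygous replicate 4. Rab26 lies on the minus strand at chr17:24527241-24534210 (GRCm38), and its span overlaps Traf7 on the same strand and the antisense gene Rab26os on the other. Rab26os had 3.498, 3.868 and 3.197 CPM in homozygous replicates 2, 3 and 4 and 2.19 to 3.43 CPM in the heterozygous libraries, groups that overlapped. The expected count of Rab26 was not whole in 3 libraries, so some of its reads were shared with another gene.

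The next members in order of p-value were Rab24, Arl4a, Arl4d, Rab4a and Arl11, and none of them passed edgeR's test. Rab24, a Rab linked to autophagy, had 38.4, 43.2 and 43.5 CPM in homozygous replicates 2, 3 and 4 and 33.6, 36.2, 34.0 and 29.9 CPM in the heterozygous libraries. Its log2 fold change was 0.32 (SE 0.08, edgeR adjusted p = 0.0814). Rab24 was the only one of these 5 whose groups were also separate over all 8 libraries, where the library labelled homozygous replicate 1 had 38.0 CPM and the log2 fold change was 0.29 (SE 0.08, edgeR adjusted p = 0.138). Its span overlaps Prelid1 on the other strand.

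Arl4a and Arl4d, which bring cytohesins, exchange factors of Arf proteins, to the plasma membrane, both had separate groups over the 7 libraries. Arl4a had 39.2, 39.7 and 38.5 CPM in homozygous replicates 2, 3 and 4 and 30.7, 35.8, 30.4 and 29.2 CPM in the heterozygous libraries (log2 fold change 0.31, SE 0.08, edgeR adjusted p = 0.0817). Arl4d had 44.0, 40.5 and 43.1 CPM in homozygous replicates 2, 3 and 4 and 38.5, 28.4, 32.1 and 30.6 CPM in the heterozygous libraries (log2 fold change 0.39, SE 0.10, edgeR adjusted p = 0.0837). In the library labelled homozygous replicate 1 they stood at 35.1 and 31.3 CPM, both within the heterozygous range. Arl4d passed without heterozygous replicate 1 (edgeR adjusted p = 0.0273) and with no filter on low counts (edgeR adjusted p = 0.0418). Their relative Arl4c had 56.1, 56.1 and 57.9 CPM in homozygous replicates 2, 3 and 4 and 51.6 to 68.9 CPM in the heterozygous libraries, groups that overlapped.

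Rab4a, of fast recycling from early endosomes, had 42.1, 41.2 and 40.0 CPM in homozygous replicates 2, 3 and 4 and 30.2, 32.3, 37.5 and 32.1 CPM in the heterozygous libraries (log2 fold change 0.32, SE 0.08, edgeR adjusted p = 0.0839). Its groups were separate, and its span overlaps Gm20388 on the same strand. The paralog Rab4b had 43.8, 49.7 and 42.9 CPM in those homozygous libraries and 39.5 to 44.6 CPM in the heterozygous libraries, with overlap. Arl11, known from macrophages, was far lower, at 0.930, 0.886 and 1.04 CPM in homozygous replicates 2, 3 and 4 and 0.561, 0.399, 0.575 and 0.393 CPM in the heterozygous libraries. Its groups did not overlap (log2 fold change 0.98, SE 0.26, edgeR adjusted p = 0.0932), while the library labelled homozygous replicate 1, at 0.392 CPM, was as low as the lowest heterozygous libraries. Over all 8 libraries Arl4a, Arl4d, Rab4a and Arl11 had log2 fold changes of 0.27, 0.29, 0.28 and 0.73, with edgeR adjusted p of 0.144, 0.269, 0.143 and 0.296. DESeq2 called 5 of 72 members over the 7 libraries, all higher: Rab26, Rab24, Rab4a, Arl4a and Arl4d. Of 15855 genes it called 2.63% higher and 4.09% lower.

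**Figure D2:**
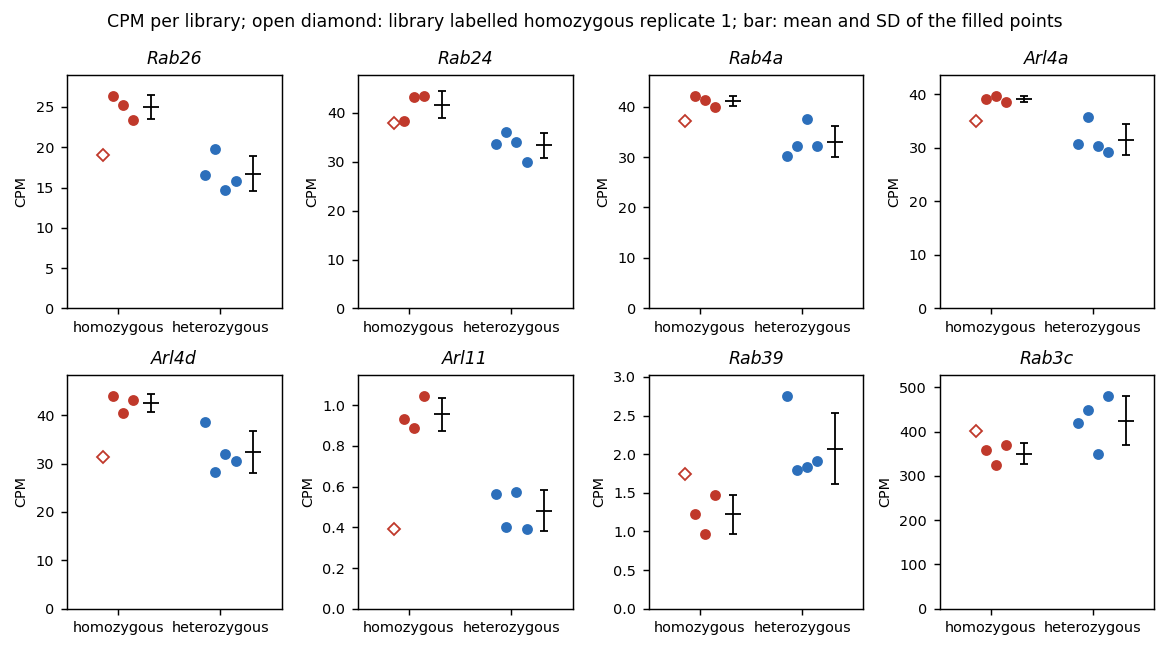
CPM in each library for 8 members, homozygous in red and heterozygous in blue; the open diamond is the library labelled homozygous replicate 1, and the black marks give mean and SD of the filled points (n = 3 and 4). Rab26 lies at 23.4 to 26.4 CPM in homozygous replicates 2, 3 and 4 and at 14.7 to 19.8 CPM in the heterozygous libraries.

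Among members with lower values in the homozygous libraries, none passed edgeR's test. The smallest p-value belonged to Rab39, reported at the Golgi and on phagosomes and grouped here with the Golgi, with 1.23, 0.967 and 1.47 CPM in homozygous replicates 2, 3 and 4 and 2.75, 1.80, 1.84 and 1.91 CPM in the heterozygous libraries. Its log2 fold change was -0.76 (SE 0.24, edgeR adjusted p = 0.134), and its groups were separate over 8 libraries as well, with 1.75 CPM in the library labelled homozygous replicate 1. Its X-linked paralog Rab39b, a neuronal Rab, overlapped between the groups, at 54.6 to 60.4 CPM in homozygous replicates 2, 3 and 4 and 52.2 to 59.9 CPM in the heterozygous libraries.

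Rab3c had 358, 324 and 369 CPM in homozygous replicates 2, 3 and 4 and 420, 449, 350 and 480 CPM in the heterozygous libraries, and heterozygous replicate 3 made the groups overlap (log2 fold change -0.28, SE 0.11, edgeR adjusted p = 0.191). Rab11a, Rab13, which acts at cell junctions, the Golgi member Rab30 and Rab2b had log2 fold changes of -0.14, -0.33, -0.14 and -0.10, with edgeR adjusted p of 0.299, 0.317, 0.392 and 0.399. Over 8 libraries Rab39 and Rab3c had log2 fold changes of -0.60 and -0.22 (edgeR adjusted p = 0.23 and 0.288). On the log2(TPM + 1) scale, where the median of all genes was shifted by -0.17, limma called 11 of 72 members lower over the 7 libraries, beside 12.7% of all genes lower and 0.574% higher. Among them were Rab30 at -0.51 (adjusted p = 0.0267), Rab3c at -0.48 (adjusted p = 0.0461), Rab39 at -0.46 (adjusted p = 0.0438), Rab11a at -0.37 (adjusted p = 0.0342) and Rab2b at -0.29 (adjusted p = 0.0344). Of Rab11a, Rab13, Rab30 and Rab2b only Rab2b had separate groups in CPM, at 33.4 to 35.5 CPM in homozygous replicates 2, 3 and 4 and 35.97 to 38.1 CPM in the heterozygous libraries. Rab37, a Rab of secretory granules, was taken up after its values were seen: 8.08, 9.03 and 18.9 CPM in homozygous replicates 2, 3 and 4, and 11.7 to 16.4 CPM in the heterozygous libraries. Without homozygous replicate 4 it was lower (log2 fold change -0.78, edgeR adjusted p = 0.0389), and with that library it did not pass (log2 fold change -0.28, edgeR adjusted p = 0.632).

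The 10 members with the highest TPM did not pass edgeR's test over 7 or 8 libraries. On the count scale their log2 fold changes over 7 libraries lay between -0.14 for Rab11a and 0.12 for Rab3a, and the standard errors between 0.06 and 0.09. Rab3a had 487, 557 and 493 CPM in homozygous replicates 2, 3 and 4 and 480, 506, 478 and 428 CPM in the heterozygous libraries (edgeR adjusted p = 0.458). Rab7, with 289 to 315 CPM in the same homozygous libraries and 284 to 309 CPM in the heterozygous libraries, had a log2 fold change of 0.03 (edgeR adjusted p = 0.847). On the log2(TPM + 1) scale limma called Rab11a, Rab6b (-0.28, adjusted p = 0.0398) and Rab7 (-0.24, adjusted p = 0.0395) lower over the 7 libraries, and there the signs of Rab3a, Rab6a, Rab7, Rab2a, Rab11b, Arl8a, Arl3 and Arl1 turned negative.

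**Figure D3:**
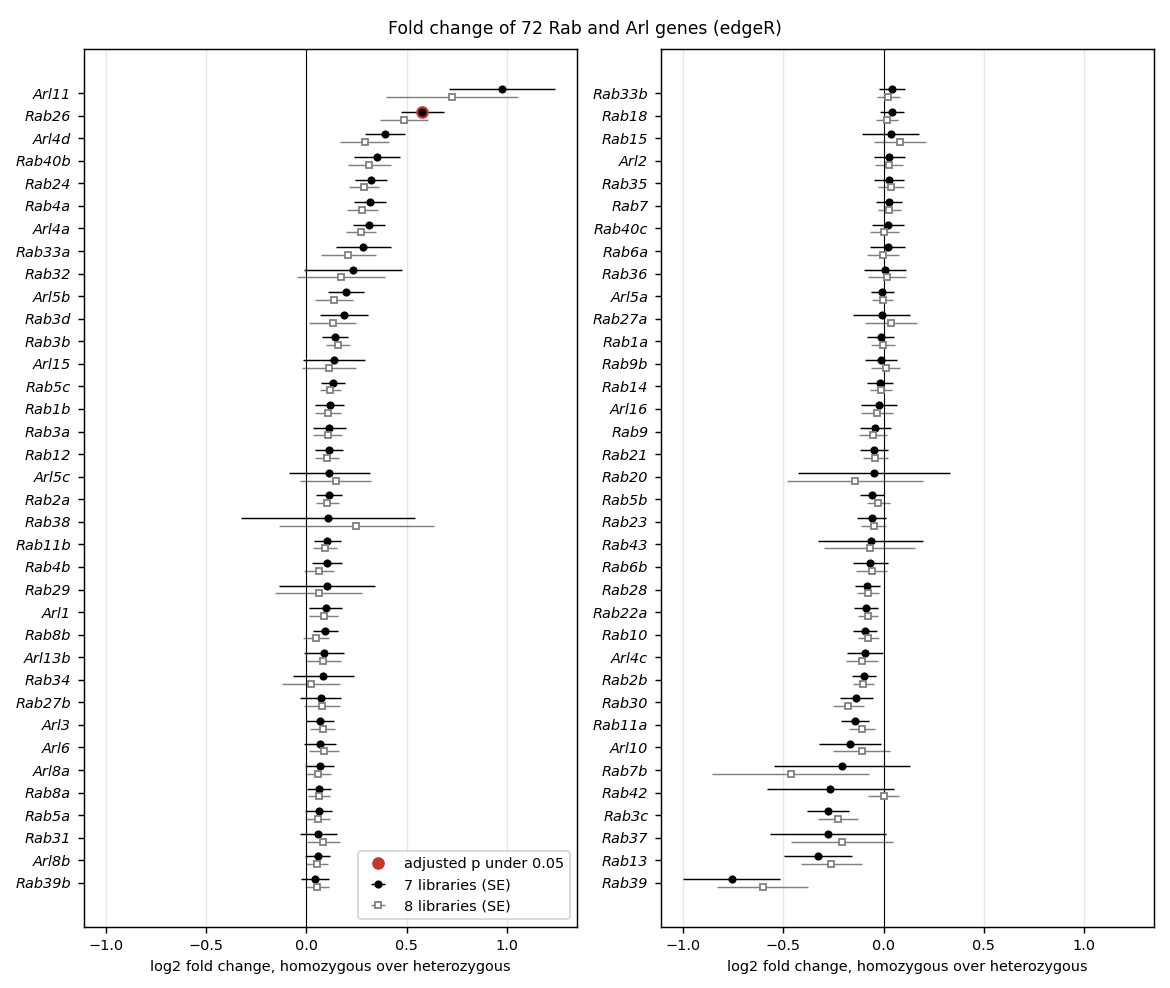
log2 fold change of each member, homozygous over heterozygous, with its SE as a bar, from edgeR over 7 libraries (black) and 8 libraries (grey), ordered by the 7-library value. Rab26 carries the red ring of an adjusted p under 0.05, Arl11 has the largest value (0.98) and Rab39 the smallest (-0.76).

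Across the 72 members, differences between the genotypes were small. Over 7 libraries the median log2 fold change was 0.04, beside 0.00 for all genes tested. Of the 72, 45 lay above 0, beside 8359 of 16560 genes. Within 0.25 of no change on the log2 scale lay 59 members (81.9%), beside 69.9% of all genes. The Arl genes had a median of 0.07, with 13 of 17 above 0, and the Rab genes 0.03, with 32 of 55 above 0. Over 8 libraries the medians were 0.04 for the members and 0.00 for all genes.

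Separate groups were found in 12 of 72 members (16.7%) over the 7 libraries, 9 higher and 3 lower, beside 18.5% of all genes (9.76% higher and 8.77% lower). That direction turned with the scale: in TPM 2 members were separate and higher and 29 separate and lower, beside 1.68% of all genes higher and 30.2% lower. In CPM the members higher without overlap were Rab26, Rab24, Rab4a, Arl4a, Arl4d, Arl11, Rab2a, Rab3b and Rab5c, and those lower Rab39, Rab2b and Rab10. Over 8 libraries 6 members (8.33%) were separate, beside 9.28% of all genes (4.61% higher and 4.67% lower): Rab24, Rab2a, Rab3b and Rab5c were higher, and Rab2b and Rab39 lower. Both shares lay near those of all genes.

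By role, members at an unadjusted p under 0.05 over the 7 libraries numbered 9 (7 higher and 2 lower), or 12.5% of the 72 beside 19.5% of all genes (9.51% higher and 9.94% lower). The Arl4 group with other members held 4 of the 9, Arl4a, Arl4d, Arl11 and Rab40b, all higher. Rab40b, which recruits a ubiquitin ligase, had 33.2, 29.7 and 23.8 CPM in homozygous replicates 2, 3 and 4 and 20.4 to 25.2 CPM in the heterozygous libraries, with overlap (edgeR adjusted p = 0.143). The synaptic and secretory group held Rab26, higher, and Rab3c, lower. Rab4a was the 1 early endosome member, Rab24 the 1 of late endosomes and autophagosomes, and Rab39 the 1 of the endoplasmic reticulum and Golgi group. None of the 9 recycling, 7 cilium and tubulin or 4 phagosome members was among them, and the 7 cilium and tubulin members all lay between -0.08 and 0.09 on the log2 scale.

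Genes that act on the Rab and Arl proteins were looked at in 6 lists, 198 of whose 200 genes were tested, Arf1 left out. Over 7 libraries 1 was higher and 1 lower, a share no larger than the 1.22% of all genes called. The higher was Arl6ip1, an endoplasmic reticulum shaping protein that binds ARL6, with 373, 372 and 346 CPM in homozygous replicates 2, 3 and 4 and 278, 279, 287 and 291 CPM in the heterozygous libraries. Its groups did not overlap (log2 fold change 0.36, SE 0.06, edgeR adjusted p = 0.0339). The library labelled homozygous replicate 1, at 293 CPM, lay just above the heterozygous libraries.

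The lower was Rph3a, rabphilin, an effector of Rab3a on synaptic vesicles. It had 406, 458 and 404 CPM in homozygous replicates 2, 3 and 4 and 577, 544, 572 and 544 CPM in the heterozygous libraries, without overlap (log2 fold change -0.40, SE 0.07, edgeR adjusted p = 0.0368). The library labelled homozygous replicate 1 had 570 CPM, within the heterozygous range. Neither gene passed edgeR's test over 8 libraries (edgeR adjusted p = 0.143 for Arl6ip1 and 0.218 for Rph3a). DESeq2 over 8 libraries called Arl6ip1 (DESeq2 adjusted p = 0.0246) and not Rph3a (DESeq2 adjusted p = 0.12). Over the 7 libraries both edgeR calls were lost with Xist as a covariate. They were also lost without any 1 of homozygous replicates 2 and 3 and heterozygous replicates 2, 3 and 4. The edgeR adjusted p in those fits was 0.0657 to 0.15 for Arl6ip1 and 0.0703 to 0.132 for Rph3a, while the log2 fold changes were 0.34 to 0.37 and -0.47 to -0.38. On the log2(TPM + 1) scale Arl6ip1 had 0.13 and did not pass (limma adjusted p = 0.203), and Rph3a had -0.62 and passed (limma adjusted p = 0.0059).

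The Rab effectors had 12 of 48 genes above 0 on the log2 scale over 7 libraries, with a median of -0.10, beside 8359 of 16560 and 0.00 for all genes. After Rph3a their smallest p-value was that of Lrrk2, a kinase that phosphorylates several Rab proteins, with 45.0, 37.8 and 40.8 CPM in homozygous replicates 2, 3 and 4 and 54.2 to 71.8 CPM in the heterozygous libraries (log2 fold change -0.53, edgeR adjusted p = 0.0537). The Arl regulators and effectors had 28 of 44 above 0, with a median of 0.07; Sys1, which brings ARFRP1, a GTPase upstream of Arl1, to the Golgi, had a log2 fold change of 0.31 (edgeR adjusted p = 0.0634).

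None of the 47 Rab exchange factors passed, with a median of -0.03 over the 7 libraries. Dennd5a, an exchange factor whose human form acts on RAB39, had 312, 284 and 280 CPM in homozygous replicates 2, 3 and 4 and 338 to 365 CPM in the heterozygous libraries (log2 fold change -0.27, edgeR adjusted p = 0.0836). Ccz1, a part of the exchange factor of Rab7, had a log2 fold change of 0.22 (edgeR adjusted p = 0.103). Of the 37 GTPase activating genes none passed, and Tbc1d17 and Tbc1d4 had the smallest p-values (log2 fold changes 0.21 and -0.45, edgeR adjusted p = 0.133 and 0.146). Of the 8 escort, prenylation and GDI genes none passed; Rabac1, which binds prenylated Rab proteins, had 0.29 and Chml, a Rab escort protein, -0.31 (edgeR adjusted p = 0.0844 and 0.293). Among 14 tested Rab-like and other Arf-family genes none passed, and Ift27, a Rab-like part of the ciliary transport complex, had 0.35 and Sar1b, of COPII vesicles, 0.21 (edgeR adjusted p = 0.0749 and 0.142).

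The library tables also give a transcript length for each gene, weighted by how the reads fell on its transcripts. Rab7b, a Rab of endosome to Golgi transport, had a longer weighted length in the homozygous libraries: 2509 bases in the library labelled homozygous replicate 1 and 2836, 2707 and 2899 bases in replicates 2, 3 and 4. It was 1988, 1933, 1609 and 1971 bases in the heterozygous libraries. The groups did not overlap over the 8 libraries, at levels of 0.81 to 3.23 CPM in the homozygous and 1.39 to 3.04 CPM in the heterozygous libraries, and no test was run. Over the 7 libraries 3 of 72 members (4.17%) had separate lengths, beside 6.46% of all genes: Rab7b and Rab35 longer and Arl10 shorter.

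Fold changes moved with transcript length. Over the 7 libraries Spearman's rho between the log2 fold change and the weighted length was -0.25 across the 72 members and -0.31 across all 16560 genes, which share libraries and are not independent replicates. The 24 shortest members, of 761 to 1660 bases, had a median of 0.09, with 16 above 0. The middle 24, of 1702 to 2971 bases, had a median of 0.05, with 17 above 0. The 24 longest, of 3049 to 8500 bases, had a median of 0.01, with 12 above 0. Rab26, at 1450 bases, stood among the shortest. Over 8 libraries rho was -0.26 across the members and -0.32 across all genes. The part of length in the members' fold changes was not tested.

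**Figure D4:**
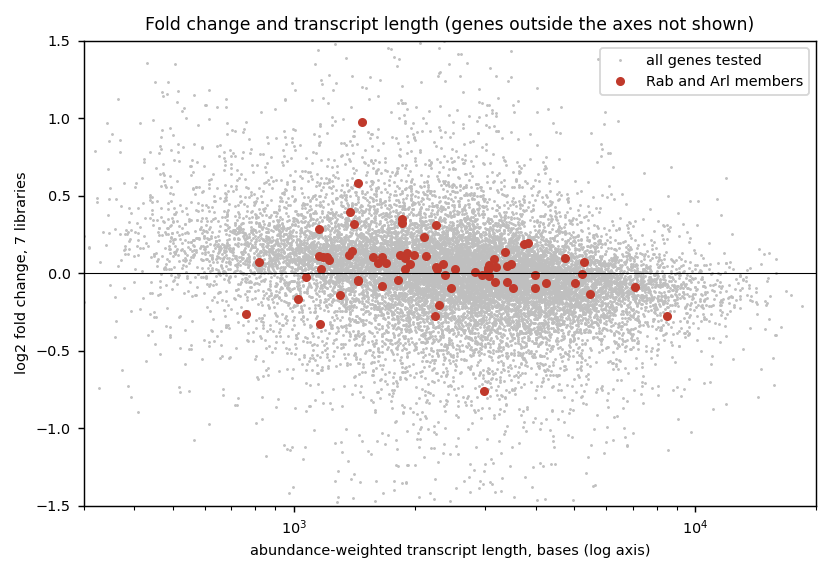
log2 fold change over 7 libraries, homozygous over heterozygous, against weighted transcript length on a log axis, with all genes tested in grey and the Rab and Arl members in red. Both clouds slope downward, with a Spearman's rho of -0.25 for the 72 members and -0.31 for all genes.

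Summed levels of some cell type marker lists also differed between the groups without overlap, which was not tested, and in bulk RNA fewer cells of a type and less RNA per cell cannot be told apart. The 6 neuron markers summed to 3646 to 3811 TPM in homozygous replicates 2, 3 and 4 and 4276 to 4957 TPM in the heterozygous libraries, and the 6 astrocyte markers to 548 to 725 TPM (homozygous) and 778 to 983 TPM (heterozygous). None of these 12 passed edgeR's test. In TPM 30.2% of all genes were separate and lower over the 7 libraries and 1.68% separate and higher. The part of that shift in the marker sums was not tested. The 6 reactive astrocyte markers summed to 422 to 1095 TPM in homozygous replicates 2, 3 and 4 and 298 to 411 TPM in the heterozygous libraries, with 2 called higher. Of 9 markers of disease-associated microglia 4 were called higher, but the sums of the 9 overlapped. They were 103, 112 and 186 TPM in homozygous replicates 2, 3 and 4 and 99.7 to 119 TPM in the heterozygous libraries. Schwann cell markers, at 54.9 to 92.9 TPM in homozygous replicates 2, 3 and 4 and 181 to 648 TPM in the heterozygous libraries, and meningeal fibroblast markers, at 16.0 to 29.7 TPM (homozygous) and 34.2 to 87.6 TPM (heterozygous), each had 1 called lower. The library labelled homozygous replicate 1 had 65.0 TPM of Schwann cell and 20.7 TPM of meningeal fibroblast markers, in the range of the other homozygous libraries. It had 4352 TPM of neuron, 304 TPM of reactive astrocyte and 98.4 TPM of disease-associated microglia markers, near the heterozygous libraries, and 764 TPM of astrocyte markers, just below them. No marker of these 6 lists was listed at 0 in any library. Among the 7 resting microglia markers 1 was called lower, with sums of 148 to 211 TPM in homozygous replicates 2, 3 and 4 and 203 to 245 TPM in the heterozygous libraries. The sums of the remaining lists overlapped as well, those of oligodendrocytes at 5654 to 11847 TPM in homozygous replicates 2, 3 and 4 and 8232 to 10042 TPM in the heterozygous libraries. The part of these lists in the values of Rab26, Arl11, Arl6ip1 and Rph3a was not tested.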

How the data were processed

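Per the submitters' processing notes, the authors used cutadapt, STAR, Picard and RSEM with the mm10 genome; for versions and gene annotation, nothing was stated in the labels. The authors deposited expected counts, TPM and weighted transcript lengths per gene, per the file headers. The authors' deposited table of log2 fold changes and p-values lists 185 genes, with 0 of the 72 members among them. Of 47643 gene rows 47224, and all 72 members, matched GENCODE M21 (GRCm38).

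Expected counts were rounded and tested over all genes by edgeR 4.0.16 in R 4.3.3 (TMM scaling, filterByExpr by group, robust quasi-likelihood fit, Benjamini-Hochberg adjustment, threshold 0.05), as homozygous minus heterozygous. CPM are TMM-scaled with the factors of the 8 libraries. RSEM divides reads between similar genes: 16 of 72 members had counts that were not whole, and 40 overlap another annotated gene. At the lowest members, with 7 to 40.6 counts, counting error is wide.

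Tests were described for members past the threshold, the 6 of smallest p per direction over 7 libraries (4 over 8 libraries) and for the 10 highest by TPM, and for the called and otherwise the 2 partner genes with the smallest p per list; other genes named were chosen after their values were seen. Members and lists were chosen with earlier results of these data known. Alternatives were DESeq2 1.42.0, limma-voom, limma 3.58.1 on log2(TPM + 1), median-of-ratios scaling, Xist as a covariate, a minimum of 1 CPM in 4 libraries, no filter, and each library left out. In simulations of 7 libraries, 59.5% of 1.5-fold, 83.3% of 2-fold and 95.5% of 4-fold changes were recovered. In those of 8 libraries the shares were 59.7%, 94.3% and 95.6%. Of the calls made, 5.99% (7 libraries) and 9.19% (8 libraries) fell on unchanged genes. Changes under 1.5-fold were not simulated, and a gene that did not pass may still differ by 1.5-fold or less. The labels do not say whether animals were littermates, and p-values set the difference between groups against the spread between these animals.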

Additional observations from a re-analysis of the deposited data

Results flagged for a closer look

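Among the 21 members described with tests, 4 of 42 groups of 4 libraries held a library set apart from the other 3 by a gap large for that group's range; chance gives this in about 1 in 20 groups. Rab3a stood at 557 CPM in homozygous replicate 3 and at 487 to 499 CPM in the other homozygous libraries. Rab2a stood at 344 CPM in homozygous replicate 3 and at 314 to 319 CPM in the others. These lie in the library with the most ribosomal bases. Rab39 stood at 2.75 CPM in heterozygous replicate 1 and at 1.80 to 1.91 CPM in the other heterozygous libraries. Arl3 stood at 54.6 CPM in heterozygous replicate 4 and at 63.0 to 63.7 CPM in the others.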

How the results depend on the processing

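Members called higher over 8 libraries were 0 by edgeR, 3 by DESeq2 and 0 to 1 with a library left out; over 7 libraries they were 1 by edgeR, 2 with no filter, 5 by DESeq2, 0 with Xist as a covariate and 0 to 1 with a library left out. Members called lower over 7 libraries were 0, against 11 on the log2(TPM + 1) scale (12.7% of all genes) and 0 to 1 with a library left out. Partner genes called higher over 8 libraries were 0, 3 by DESeq2 and 0 to 1 with a library left out (lower: 0 to 1). Over 7 libraries 1 partner was higher, 6 by DESeq2, 0 on the TPM scale or with the Xist covariate and 0 to 1 with a library left out; 1 was lower, 2 with no filter, 5 by DESeq2, 27 on the TPM scale, 0 with the Xist covariate and 0 to 3 with a library left out. The median log2 fold change of members was -0.12 (8 libraries) and -0.17 (7 libraries) on the TPM scale, where all genes moved by -0.14 and -0.17. Separate groups over 7 libraries were 2 higher and 29 lower on the TPM scale (all genes: 1.68% and 30.2%), and 10 to 16 higher and 4 to 7 lower with a library left out (all genes: 12.2% to 16.8% and 10.99% to 15.8%).

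On the TPM scale signs turned over 8 and 7 libraries for Rab3a (-0.070, -0.11), Rab7 (-0.19, -0.24), Rab2a (-0.072, -0.11), Rab11b (-0.072, -0.11), Arl8a (-0.12, -0.16), Arl3 (-0.10, -0.15) and Arl1 (-0.12, -0.16), and over 7 for Rab6a (-0.18). Rab6a, near 0 over 8 libraries, turned to 0.0017 at 1 CPM, 0.0036 by limma-voom, 0.011 with the Xist covariate and ran from -0.054 to 0.041 with a library left out, and over 7 libraries from -0.033 to 0.061. Over 7 libraries with a library left out Rab7 ran from -0.011 to 0.050 and Arl8a from -0.0033 to 0.10, both negative without homozygous replicate 3. The cause was not tested. Median-of-ratios scaling turned no sign. No paired analysis was run, because the labels give no litter or batch by which to pair the animals. The labels' replicate titles share no numbers between the groups. Members under 1 CPM, such as Arl11, are limited by depth.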
